A study of Mus musculus with 6 samples.

Results

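Alveolar myofibroblasts were described as 1 stromal cluster of single cells from the lungs of mouse pups raised in room air or in hyperoxia. The cluster held 5089 of the 61839 cells and of the 21985 stromal cells in the deposited table. Its members were taken by the cluster number of the authors' annotation, choosing the cluster read here as the study's myofibroblasts. The markers used for it here were *Tgfbi*, *Hhip*, *Aspn* and *Pdgfra*, and the text of the study names *Tgfbi* and *Acta2*. In the annotation itself this cluster carries the name SMC, while the name Myofibroblast stands on another cluster of 373 stromal cells. Part of the marker genes went against both names. The cluster of 5089 cells had the highest *Tgfbi* and *Pdgfra* of the 33 cell types with enough cells, and the cluster of 373 cells had 5387 counts per 1000000 UMIs (CPM) of *Actc1* and 110.8 CPM of *Pln*, which mark smooth muscle, against 11.4 and 0.32 CPM here. *Eln*, *Stc1* and *Fgf18* were also higher in the cluster of 5089 cells. *Hhip*, *Aspn*, *Acta2*, *Mustn1* and *Tagln*, also counted as myofibroblast markers here, were higher in the cluster of 373 cells. *Acta2* had 14760 CPM there and 3433 CPM here, *Mustn1* 1457 and 454.5 CPM, and *Tagln* 10650 and 3848 CPM. The larger cluster is called myofibroblasts and the smaller one fibromyocytes/SMCs. This rests on *Tgfbi*, *Pdgfra*, *Actc1* and *Pln* and on the study's account of fibromyocytes/SMCs as a small population.

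Whole lungs of 36 C57BL/6 pups were profiled with droplet single-cell RNA-sequencing, 6 mice in each group of age and oxygen, and the labels name no transgene or deletion in any of them. Hyperoxic pups breathed 85% O2 from the day of birth until harvest on postnatal day (P)3, P7 or P14, which served as a model of impaired alveolar growth, and normoxic pups of the same ages breathed 21% O2. The lungs were dissociated with enzymes and cells of each mouse were tagged with a sample barcode before pooling, so that 5 pools and 6 libraries covered all mice, with 3 mice from each oxygen level for every age in a pool. The P3 and P7 mice shared 1 of their pools, and the P14 mice were in pools of their own. Pups of both sexes were used, the labels do not give the sex of a mouse, and the study names an uneven mix of the sexes at the younger ages among its limits. The recovery of myofibroblasts by this digestion was not analysed here, and a smaller share of cells does not give the number of cells in the lung.

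The libraries held between 566 and 1108 myofibroblasts. A total of 2 cell barcodes were shared by myofibroblasts of different libraries, over 15 pairs of libraries, and the assigned sample barcode was the most abundant in 4865 of the 5089 cells. The number of myofibroblasts per mouse was between 27 and 360 in 35 mice, with between 246306 and 2392677 unique molecular identifiers (UMIs) in their sum. The remaining mouse, hyperoxic at P7, had 125 cells in all and 2 myofibroblasts, and was left out wherever genes were compared, which left 5 mice in that group. Levels are CPM, the UMIs of a gene per 1000000 UMIs of all myofibroblasts of a mouse. A gene was called changed at an adjusted p below 0.05 in edgeR's quasi-likelihood test over mice, if at least 10% of the cells of a compared group had a UMI. Adjusted p-values for genes come from that test with Benjamini-Hochberg adjustment over all genes tested, and log2 changes are given with their standard errors. Log2 changes compare a gene with itself, and CPM of different genes were not ranked against each other.

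Depth differed with oxygen at P14. The median UMI count of a myofibroblast was 3522 ± 204 in normoxic and 9100 ± 788 in hyperoxic mice at P14 (SD, n = 6 each; exact permutation test, adjusted p = 0.00649), and both pools showed it, with differences of 5669 and 5486 UMIs. At P3 it was 6423 ± 2506 and 6163 ± 2660, and at P7 9044 ± 1310 and 8919 ± 1745, with 5 hyperoxic mice. The median percent of mitochondrial UMIs in myofibroblasts also differed at P14, between 4.002 and 4.82% in normoxic and between 5.16 and 6.04% in hyperoxic mice, without overlap, and its part in the differences at P14 was not tested. The difference in depth was not limited to myofibroblasts. At P14, 22 of 23 clusters with enough cells had a higher median in hyperoxia, by a factor between 0.953 and 3.08 over all 23, and by 2.58 in myofibroblasts, 1.57 in *Col13a1*+ and 1.53 in *Col14a1*+ fibroblasts. The part of depth in the differences at P14 was not tested beyond a recount, named equal UMIs per cell here. It thinned the sum of each mouse at random to the same mean of 3278.8 UMIs per cell. Cells of a mouse kept their unequal depth, and the criterion on cells with a UMI still used all UMIs. This recount called 3720 of 7568 genes tested, where all UMIs called 4559 of 9737.

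Alveolar myofibroblasts arise from *Pdgfra*-positive mesenchyme and gather at the tips of secondary septa, the ridges that divide the air sacs after birth. They contract through smooth muscle actin and its partners, lay down elastic fibres, and depend on PDGF-A from the epithelium and on Hedgehog signals. In normal lungs the cells are transient and lose their contractile genes as alveolar growth slows. Loss of these cells or of their elastin leaves large, simplified air spaces, the appearance of bronchopulmonary dysplasia in infants who were given oxygen.

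*Tgfbi*, which encodes a matrix protein induced by TGF-beta, was the clearest marker. It reached 3537 ± 1086 CPM in myofibroblasts (SD, n = 35 mice), above 985.8 CPM in fibromyocytes/SMCs, the next type, and 22.6 CPM in *Col13a1*+ fibroblasts. *Pdgfra*, the receptor for PDGF-A, was also highest here, at 236.9 CPM, with 167.2 CPM in *Col14a1*+ fibroblasts and 1.74 CPM in fibromyocytes/SMCs. *Fgf18*, a growth factor of the late lung, was highest here as well (172.1 CPM). *Aspn*, a small matrix proteoglycan, was at rank 2 with 2053 CPM, after 2594 CPM in fibromyocytes/SMCs. *Hhip*, which binds and restrains Hedgehog ligands, was at rank 3 with 370.9 CPM, against 366.1 CPM in *Col13a1*+ fibroblasts and 1392 CPM in fibromyocytes/SMCs. *Acta2*, smooth muscle actin, was at rank 3 with 3433 CPM against 14760 CPM in fibromyocytes/SMCs, and *Eln*, elastin, was at rank 2 with 8847 CPM against 16120 CPM in the larger of the pericyte clusters. These levels are means over mice of all ages and both oxygen levels, so that they and the ranks depend on the mix of groups. The ranks describe the cluster and were not tested, since the clusters were made from the same genes. In the GRCm38 assembly, *Tgfbi* lies at chr13:56609523-56639562 and *Aspn* at chr13:49544443-49567565, both on the plus strand, *Pdgfra* at chr5:75152292-75198215 on the plus strand and *Hhip* at chr8:79965851-80058006 on the minus strand, each given from the start to the end of the annotated gene.

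The share of myofibroblasts rose between P3 and P7 in room air and was lower in hyperoxia at P14. Myofibroblasts made up 5.13% of all cells in normoxic and 5.38% in hyperoxic mice at P3. The shares were 12% and 6.38% at P7 and 11.7% and 6.68% at P14 (n = 6 each). The difference at P14, of -5.01 percentage points, passed the test (exact permutation test, adjusted p = 0.034 over 102 tests of 34 clusters and 3 ages), and that at P7 did not (-5.64 points, exact permutation test, adjusted p = 0.0903). At P14 normoxic mice ranged from 7.33% to 17.6% and hyperoxic mice from 5.73% to 7.35%, so that the ranges just overlapped. With labels permuted only within pools the difference at P14 had an adjusted p of 0.06 in the permutation test, and among non-immune cells it was -7.13 points with an adjusted p of 0.0589 (exact permutation test). Of the stromal cells, myofibroblasts were 38.2% in normoxic and 19.4% in hyperoxic mice at P14, with no overlap (exact permutation test, adjusted p = 0.0315). Within the pools of an age, hyperoxic minus normoxic mice gave 1.83 and -1.33 points (P3), -1.26 and -10.0 points (P7) and -2.95 and -7.07 points (P14).

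The effect of oxygen on the share differed between ages. The effect at P7 minus that at P3 was -5.89 points and the effect at P14 minus that at P3 was -5.26 points (permutation tests of the difference of differences, adjusted p = 0.0256 each), and the effect at P14 minus that at P7 was 0.632 points (permutation test, adjusted p = 0.848). In room air the share rose by 6.9 points from P3 to P7 (exact permutation test, adjusted p = 0.0368) and differed by -0.338 points from P7 to P14 (adjusted p = 0.908). In hyperoxia it differed by 1.01 points from P3 to P7 (exact permutation test, adjusted p = 0.645) and rose by 1.3 points from P3 to P14 (adjusted p = 0.0442). Without the P7 mouse with 125 cells, the step from P3 to P7 in hyperoxia was 1.96 points (exact permutation test, adjusted p = 0.0401), and the difference of effects between P7 and P3 was -4.93 points (permutation test, adjusted p = 0.0503). Among stromal cells, with all mice, the difference of effects was -13.4 points between P7 and P3 (permutation test, adjusted p = 0.106) and -19.2 points between P14 and P3 (adjusted p = 0.0093).

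**Figure D1:**
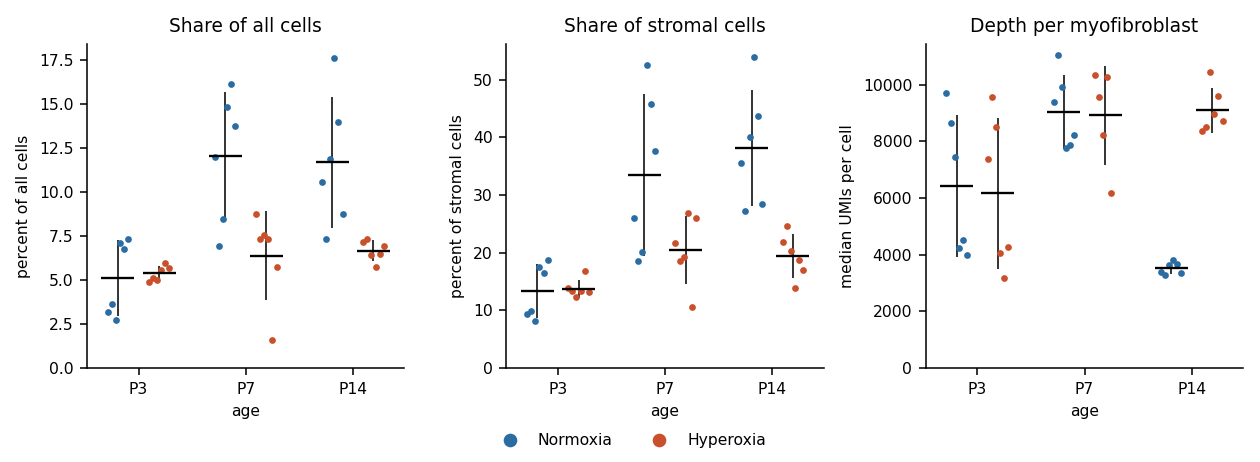
Myofibroblasts as a percent of all cells, as a percent of stromal cells, and the median number of UMIs per myofibroblast, by age, with 1 point per mouse (normoxia blue, hyperoxia orange), the group mean as a horizontal line and its SD as a vertical line. The shares of all cells overlap between normoxic and hyperoxic mice at each age, the shares of stromal cells separate at P14, and the depth separates at P14 only, where means were 3522 and 9100 UMIs.

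More genes were called in myofibroblasts at each later age. Of 9737 genes tested, 343 rose (3.52% of those tested) and 287 fell (2.95%) at P3, 716 rose (7.35%) and 516 fell (5.3%) at P7, and 2512 rose (25.8%) and 2047 fell (21%) at P14. The excess of rises at P14 was not seen in the recount with equal UMIs per cell, which tested fewer genes. There 1868 genes rose and 1852 fell at P14, and the part of depth in this change was not tested. Rises were then 50.2% of the calls, against 55.1% with all UMIs. The part of the criterion on cells with a UMI in this excess was not tested. In the fit over all ages, with all UMIs, 1870 genes rose (19.2%) and 1517 fell (15.6%). Of the called genes, 626 of 630 at P3, 1227 of 1232 at P7 and 4549 of 4559 at P14 had the same direction in both pools of that age. These genes were called on the mice of both pools together. The agreement thus follows in large part from the selection and is no separate support. Among genes above an average log2 CPM of 5, those with the largest increase over all ages were *Cdkn1a*, *Sulf2*, *Ccl2*, *Dcn*, *Lum*, *Ccnd1*, *Psrc1* and *Ccng1*, and among those with the largest decrease were *Gas1*, *Pcolce2*, *Igfbp5*, *Adam33*, *Tmcc3*, *Ndrg2* and *Igfbp3*. At P14, among genes above the same level, the increase was led by *Psrc1*, *Dcn*, *Fst*, *Ccnd1*, *Sulf2*, *Ccl2*, *Alkal1* and *S100a6*, and genes such as *Gas1*, *Pcolce2*, *Ndrg2*, *Fmo2*, *Igfbp3*, *Igfbp5* and *Cdh4* had the largest decrease. The gene groups that follow were compared with the shares of all tested genes that were called with all UMIs. The median log2 change of all tested genes was between -0.06 and 0.02 in each comparison.

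Target genes of p53 were higher in hyperoxia at every age. Of 24 genes on the list 22 were tested, and 17 rose and none fell at P3, 19 rose and 1 fell at P7, and 18 rose and 2 fell at P14, with median log2 changes of 1.91, 2.08 and 1.75. The gene for p21, *Cdkn1a*, which blocks the cyclin-dependent kinases, had between 49.6 and 101 CPM in normoxic mice at P3 (median 69.7) and between 692 and 1706 CPM in hyperoxic mice (median 1014). At P7 normoxic mice had between 13.4 and 81.8 CPM (median 33.8) and the 5 hyperoxic mice 701, 1070.1, 1118, 1161 and 1450 CPM. At P14 the values were between 43.7 and 196 CPM (median 96.1) and between 940 and 1351 CPM (median 1263). No hyperoxic mouse overlapped the normoxic mice at any age. The log2 changes of *Cdkn1a* were 3.85 ± 0.29 at P3 (adjusted p = 5.92e-13), 5.02 ± 0.30 at P7 (adjusted p = 1.08e-16) and 3.71 ± 0.28 at P14 (adjusted p = 2.14e-14).

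*Bax*, which opens the mitochondrial membrane in apoptosis, had between 86.7 and 117 CPM in normoxic (median 111) and between 668 and 777 CPM in hyperoxic mice (median 725) at P14. It rose by 1.89 at P3, by 1.93 at P7 and by 2.82 ± 0.10 at P14 (adjusted p = 6.82e-24). *Psrc1*, a spindle protein, had at most 2.36 CPM in normoxic and at least 63.0 CPM in hyperoxic mice at P14, a log2 change of 5.84 ± 0.41 (adjusted p = 3.87e-15), after 2.06 at P3 and 2.93 at P7. *Ccng1*, *Mdm2*, *Phlda3* and *Aen* were likewise above every normoxic mouse of their age in every hyperoxic mouse, at all 3 ages. *Mdm2*, which marks p53 for degradation, rose by 1.82, 1.60 and 1.54 on the log2 scale at P3, P7 and P14. *Fas*, a death receptor, rose by 1.93, 2.04 and 0.89, and *Gdf15*, a secreted stress hormone, by 1.51, 2.33 and 3.22, where the call of *Gdf15* at P3 was lost with equal UMIs per cell and in pools of a single age. Against the list, *Sesn1* fell by 1.22 at P7 and by 2.35 ± 0.21 at P14 (adjusted p = 4.58e-12), with between 42.7 and 90.3 CPM in normoxic and between 7.60 and 19.4 CPM in hyperoxic mice at P14. *Rrm2b*, a subunit of ribonucleotide reductase, fell by 0.76 at P14.

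The promoter of *Cdkn1a* is shown because it was the only window of the p53 target genes that held the letters searched for p53. The window of 300 bases around an annotated start of *Cdkn1a* is chr17:29090729-29091028 on the plus strand of GRCm38.p6, from the RefSeq annotation, from 250 bases before to 50 bases after the start. Capitals mark the match to the p53 response element as searched, a pair of half-sites that follow the consensus letter for letter with a spacer of up to 13 bases, which starts 73 bases before the start site. Half-sites that depart from the consensus in 1 letter were not searched and stay in lower case, also where they adjoin the capitals.
Cdkn1a: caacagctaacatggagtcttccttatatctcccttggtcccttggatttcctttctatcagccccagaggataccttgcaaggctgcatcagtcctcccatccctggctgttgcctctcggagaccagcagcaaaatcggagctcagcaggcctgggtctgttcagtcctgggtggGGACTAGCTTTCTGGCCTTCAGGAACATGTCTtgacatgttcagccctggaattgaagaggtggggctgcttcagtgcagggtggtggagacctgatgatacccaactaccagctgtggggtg
Such a match was in 24 of 32851 windows of all genes (0.0731%) and in 1 of 26 windows of the 18 p53 target genes with a window (3.85%), that of *Cdkn1a*, which has 2 windows. Other sites of p53 lie outside windows of this length, and a match of letters does not show binding.

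Most cell cycle genes were lower in hyperoxia at P3, and fewer were called lower at P7. Of 28 genes tested, 20 fell and 2 rose at P3 (median log2 change -1.71), 9 fell and 1 rose at P7 (median -0.848), and none fell and 3 rose at P14 (median 0.53). *Pclaf*, a partner of the DNA clamp PCNA, had between 166 and 354 CPM in normoxic (median 298) and between 5.11 and 105 CPM in hyperoxic mice (median 33.0) at P3, without overlap. It fell by 2.46 at P3 and by 1.55 at P7, and differed by 1.22 at P14, where normoxic mice had at most 6.83 CPM. *Rrm2*, the subunit of that enzyme used in DNA synthesis, fell by 2.59 at P3, from between 60.9 and 142 CPM to between 4.01 and 37.9 CPM, and by 0.95 at P7, a call that was lost with equal UMIs per cell.

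*Mki67*, the proliferation antigen, had between 56.8 and 213 CPM in normoxic and between 18.7 and 119 CPM in hyperoxic mice at P3, between 80.3 and 205 CPM and 33.1, 45.6, 47.8, 54.9 and 125 CPM at P7, and between 21.9 and 79.4 CPM and between 9.70 and 26.8 CPM at P14. The groups overlapped at each age, although the medians were lower in hyperoxia each time. *Mki67* fell by 1.53 at P3 and by 1.21 ± 0.31 at P7 (adjusted p = 0.0065), and its log2 change of -1.36 at P14 was not called, because too few cells had a UMI (adjusted p = 0.00702). *Cdk1*, the mitotic kinase, fell by 2.34 at P3 and by 1.29 at P7 (adjusted p = 0.00168), a call that was lost when only pools of a single age were used. In DESeq2 the calls of *Top2a*, *Ccnb1*, *Ccnb2* and *Ube2c* at P3 were lost.

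The genes that rose against the list at P3 were D-type cyclins, which start the cycle and are also raised by growth factors without division. *Ccnd1* had between 12.2 and 56.3 CPM in normoxic and between 116 and 436 CPM in hyperoxic mice at P3, and between 3.65 and 41.8 CPM and between 429 and 809 CPM at P14. The log2 changes of *Ccnd1* were 2.92 at P3, then 2.49 at P7 and then 5.12 ± 0.34 at P14 (adjusted p = 1.37e-15). *Ccnd2* rose by 1.32 at P3 and by 2.53 at P14. *Tyms*, thymidylate synthase, fell by 1.41 at P3 and rose by 1.42 ± 0.30 at P14 (adjusted p = 0.000138), where its level was between 2.98 and 12.1 CPM in normoxic and between 12.9 and 31.8 CPM in hyperoxic mice.

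The promoter of *Cdk1* is shown for the letters TTTGAA, which many genes of late cell cycle carry close to their start. Its window is chr10:69352863-69353162 on the minus strand of GRCm38.p6 in RefSeq, written 5′ to 3′ along the gene, and capitals mark both matches, 71 and 15 bases before the start.
Cdk1: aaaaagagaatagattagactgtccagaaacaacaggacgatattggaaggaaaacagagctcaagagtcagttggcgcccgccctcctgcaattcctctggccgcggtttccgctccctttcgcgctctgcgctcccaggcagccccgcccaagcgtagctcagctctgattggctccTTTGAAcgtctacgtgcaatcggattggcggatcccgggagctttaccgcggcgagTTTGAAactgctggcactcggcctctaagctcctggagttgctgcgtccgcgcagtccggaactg
On either strand, TTTGAA was in 10 of 23 windows of the 22 cell cycle genes with a window (43.5%) and in 17.9% of all windows. The 10 were those of *Aurka*, *Ccnb2*, *Cdc20*, *Cdk1*, *Cenpf*, *Hmgb2*, *Mcm2*, *Mki67*, *Top2a* and *Ube2c*.

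Few contractile genes were called at P3 and P7, and most were higher in hyperoxia at P14. Of 16 genes tested, none rose and 2 fell at P3, 2 rose and 1 fell at P7, and 11 rose and 1 fell at P14, with a median log2 change of 1.03. *Acta2* had between 4243 and 5875 CPM in normoxic (median 4793) and between 2901 and 4197 CPM in hyperoxic mice (median 3147) at P3. At P7 it had between 3403 and 5579 CPM in normoxic mice (median 4558) and 3766, 4079, 4861, 4877 and 4963 CPM in hyperoxic mice. At P14 normoxic mice had between 575 and 1130.3 CPM (median 722) and hyperoxic mice between 1796 and 3529 CPM (median 2945). Hyperoxic mice were thus all below normoxic mice at P3, overlapped them at P7 and were all above them at P14. *Acta2* fell by 0.46 ± 0.14 at P3 (adjusted p = 0.0372, lost in pools of a single age), differed by 0.08 at P7 (adjusted p = 0.77) and rose by 1.93 ± 0.15 at P14 (adjusted p = 5.75e-14).

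*Tagln*, an actin-binding protein, rose from between 1009.9 and 1718 CPM to between 2394 and 4395 CPM at P14, by 1.57 ± 0.13 (adjusted p = 4.66e-13). *Cnn1*, calponin, rose by 2.51 and *Actg2*, enteric actin, by 2.34, both without overlap between the groups. Tropomyosins *Tpm1* and *Tpm2* rose by 1.55 and 1.77, desmin *Des* by 1.67 and the smooth muscle myosin *Myh11* by 1.0. *Myl9*, the myosin light chain, fell by 0.60 at P3 and rose by 0.88 ± 0.16 at P14 (adjusted p = 1.69e-05), from a median of 209 to a median of 431 CPM. *Mylk* (0.04), *Smtn* (-0.28) and *Myocd* (0.22), the cofactor that drives smooth muscle genes, did not pass the test at P14, and the non-muscle myosin *Myh10* fell by 0.36. With cells thinned to 1000 UMIs, 37.6% of normoxic and 71.9% of hyperoxic myofibroblasts had a UMI of *Acta2* at P14 and 92.9% and 78.8% at P3 (exact permutation test, adjusted p = 0.00703 each, over 39 tests). In alveolar macrophages, which lack *Acta2* and had medians of 5968 and 13300 UMIs at P14, the shares were 1.54% and 2.68%.

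The summed level of 7 smooth muscle markers was between 491.6 and 750.8 CPM in normoxic and between 1106 and 1868 CPM in hyperoxic myofibroblasts at P14, and that of 9 pericyte markers between 535.2 and 673.9 CPM and between 980 and 1357 CPM. These sums are not separate from the gene groups described here. The smooth muscle list holds *Myh11*, *Cnn1*, *Des*, *Lmod1* and *Synpo2*, which are also contractile genes, and *Actc1* and *Pln*. Of these 7 markers, *Myh11*, *Lmod1*, *Synpo2*, *Actc1* and *Pln* overlapped between the groups. The pericyte list holds *Postn*, which is a matrix gene. In every hyperoxic mouse *Postn* and *Trpc6* were above and *Pdzd2* was below every normoxic mouse, and the other pericyte markers, such as *Higd1b*, *Cox4i2* and *Notch3*, overlapped. How many of all tested genes were without overlap was not counted, for these or other genes described that way. All 7 and all 9 markers had UMIs in both groups. The part of other cells in these differences was not tested.

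Among the contractile genes, only the promoter window of *Myl9* held an exact match to the CArG box, the element read by serum response factor. The window shown is chr2:156775214-156775513 on the plus strand of GRCm38.p6 in RefSeq. Capitals mark the box, 161 bases before the start.
Myl9: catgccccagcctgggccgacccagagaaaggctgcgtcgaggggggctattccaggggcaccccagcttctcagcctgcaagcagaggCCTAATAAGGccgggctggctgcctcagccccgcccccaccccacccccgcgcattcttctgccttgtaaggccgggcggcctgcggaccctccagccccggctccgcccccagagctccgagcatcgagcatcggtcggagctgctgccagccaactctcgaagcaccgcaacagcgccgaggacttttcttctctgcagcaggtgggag
A CArG box, searched letter for letter on both strands, was in 1 of 13 windows of the 12 contractile genes with a window (7.69%) and in 1.63% of all windows. Boxes that depart from the consensus were not searched and stay in lower case, so that other promoters may hold such boxes.

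The marker genes of the cluster split at P14. Of the 10, *Pdgfra*, *Hhip*, *Aspn*, *Mustn1*, *Eln* and *Tgfbi* fell, *Acta2*, *Tagln* and *Fgf18* rose, and *Stc1* did not pass the test (log2 change 0.66, adjusted p = 0.0948). *Pdgfra* had between 97.4 and 251 CPM in normoxic (median 173) and between 130 and 267 CPM in hyperoxic mice (median 164) at P3. At P7 the values were between 183 and 348 CPM and 120, 128, 137, 140 and 165 CPM, and at P14 between 324 and 669 CPM (median 567) and between 86.4 and 157 CPM (median 116). The groups overlapped at P3 and were apart at P7 and P14. *Pdgfra* differed by 0.03 at P3 and fell by 0.83 ± 0.19 at P7 (adjusted p = 0.00255) and by 2.1 ± 0.19 at P14 (adjusted p = 4.55e-12). *Hhip* had between 409 and 956 CPM in normoxic and between 94.3 and 339 CPM in hyperoxic mice at P14 and fell by 1.67 ± 0.25 (adjusted p = 4.76e-07), while it overlapped at P3 and P7. *Aspn* fell by 1.68 ± 0.25 (adjusted p = 5.17e-07), from between 3352 and 5938 CPM to between 1261 and 1604 CPM.

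*Mustn1*, a gene of contractile and skeletal tissue, had between 252 and 747 CPM in normoxic mice at P7 and between 1049 and 1742 CPM at P14, against between 80.9 and 367 CPM and between 132 and 368 CPM in hyperoxic mice. It fell by 1.46 at P7 and by 2.40 ± 0.24 at P14 (adjusted p = 6.13e-11). *Tgfbi* fell by 0.29 ± 0.12 at P14 (adjusted p = 0.0385), a smaller change than in those genes, although every hyperoxic mouse (1806 to 2300.4 CPM) lay below every normoxic mouse (2358 to 3210.2 CPM). *Fgf18* was higher by 0.43 ± 0.18 at P14 (adjusted p = 0.0431), with overlapping groups, a call lost with equal UMIs per cell and in DESeq2. *Stc1*, stanniocalcin, differed early. It had between 32.5 and 56.3 CPM in normoxic and between 175 and 341 CPM in hyperoxic mice at P3, a rise of 2.53 ± 0.39 (adjusted p = 1.81e-05), and 0.98 at P7, where the call was lost in DESeq2, with equal UMIs per cell, in pools of a single age and without any 1 of 4 of the 5 hyperoxic mice.

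With cells thinned to 1000 UMIs, the share of myofibroblasts with a UMI went from 34.7% to 11.2% for *Pdgfra*, from 67.9% to 20.7% for *Mustn1*, from 25.8% to 12% for *Hhip* and from 74.7% to 48.3% for *Aspn* between normoxia and hyperoxia at P14 (exact permutation tests, adjusted p = 0.00703 for *Pdgfra*, *Mustn1* and *Hhip* and 0.0121 for *Aspn*). In alveolar macrophages the shares for these genes were between 0 and 1.91%. At P7 the shares of myofibroblasts with a UMI of *Pdgfra*, 20.5% in normoxia and 12.7% in hyperoxia, did not pass the exact permutation test (adjusted p = 0.0683). They passed it with 2000 UMIs per cell (adjusted p = 0.0464).

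**Figure D2:**
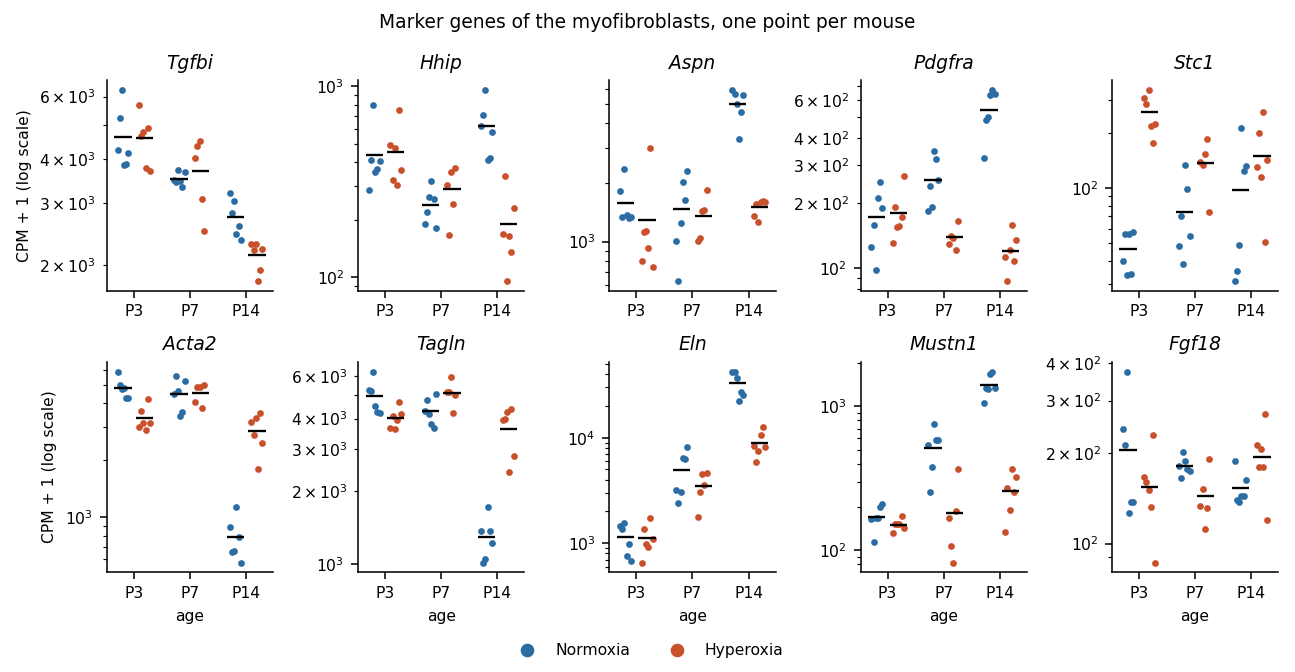
CPM + 1 on a log scale of the 10 marker genes of the cluster, by age, with 1 point per mouse (normoxia blue, hyperoxia orange) and the mean as a line. *Hhip*, *Aspn*, *Pdgfra*, *Eln* and *Mustn1* are lower in hyperoxia at P14, *Acta2* and *Tagln* are higher, and *Stc1* is higher at P3, with between 175 and 341 CPM.

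Among the elastic fibre genes named here, elastin had the largest log2 change at P14. *Eln* rose steeply in normoxic mice, from between 684 and 1547 CPM at P3 to between 2426 and 8096 CPM at P7 and between 22410 and 42348 CPM at P14. In hyperoxic mice it reached between 653 and 1724 CPM at P3, 1771 to 4614 CPM at P7 and 5824 to 12724 CPM at P14. Groups overlapped at P3 and P7 and were apart at P14. *Eln* fell by 1.81 ± 0.26 at P14 (adjusted p = 2.22e-07) and differed by -0.41 at P7 (adjusted p = 0.332).

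Of 19 elastic fibre genes 16 were tested, with 1 rise at P3, 3 falls at P7, and 3 rises and 4 falls at P14 (median log2 change -0.232). As a list they were thus near the shares of all tested genes at P14, of which 25.8% rose and 21% fell. *Mfap2*, a microfibril glycoprotein, fell by 0.54 at P7 and by 1.10 ± 0.13 at P14 (adjusted p = 4.27e-09). The latent TGF-beta binding proteins *Ltbp3* and *Ltbp4* fell by 0.80 and 0.72 at P14, *Ltbp4* after a rise of 0.54 at P3. *Efemp2*, fibulin-4, which brings lysyl oxidase to elastin, rose by 1.38 ± 0.12 at P14 (adjusted p = 4.58e-12), and *Fbn1*, fibrillin-1, by 0.36. Lysyl oxidase, *Lox*, differed by -0.59 (adjusted p = 0.0581) and fibulin-5, *Fbln5*, by -0.41 (adjusted p = 0.325).

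Collagens and other matrix genes were mostly higher. Of 33 genes 31 were tested, and 8 rose at P3, 14 rose at P7, and 21 rose and 3 fell at P14 (median log2 change 0.70), without a fall at the earlier ages. *Dcn*, decorin, a proteoglycan that binds collagen and TGF-beta, had between 15.4 and 41.0 CPM in normoxic (median 25.3) and between 871 and 1640 CPM in hyperoxic mice (median 1192) at P14. At P7 it had between 7.89 and 35.0 CPM in normoxic and 87.5, 157, 186, 231 and 290 CPM in hyperoxic mice, and at P3 the groups overlapped. *Dcn* rose by 3.39 ± 0.32 at P7 (adjusted p = 8.25e-11) and by 5.70 ± 0.33 at P14 (adjusted p = 1.96e-17). *Dcn* is a marker of *Col14a1*+ fibroblasts, and the sum of 8 of their markers, *Dcn* included, was between 579.5 and 840.5 CPM in normoxic (median 636.3) and between 1139 and 1944 CPM in hyperoxic myofibroblasts (median 1451) at P14. The median of *Dcn* alone rose by more CPM than that of the sum. *Col14a1* itself fell in myofibroblasts, by 2.05 at P14. The part of other cells in the rise of *Dcn* was not tested.

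*Col18a1*, the source of endostatin, was above every normoxic mouse of its age in every hyperoxic mouse at all 3 ages and rose by 1.68 at P7 and by 3.49 ± 0.23 at P14 (adjusted p = 1.07e-15), from between 6.06 and 18.8 CPM to between 81.4 and 163 CPM. *Timp1*, an inhibitor of matrix metalloproteinases, rose by 1.75 at P7 and by 3.54 ± 0.23 at P14 (adjusted p = 6.93e-16), and the gelatinase *Mmp2* by 1.49, 1.44 and 0.89 at P3, P7 and P14. *Postn*, periostin, rose by 2.22 at P14, *Fn1*, fibronectin, by 1.47, *Vcan*, versican, by 1.52 and *Tnc*, tenascin C, by 1.2. The collagen chaperone *Serpinh1* rose by 1.43. *Sulf2*, which trims heparan sulphate, rose by 2.6 at P3, 4.35 at P7 and 4.79 at P14. Fibrillar collagens split: *Col3a1* fell by 1.38 ± 0.13 (adjusted p = 1.28e-11), from between 6699 and 7868 CPM to between 2272 and 2954 CPM at P14, *Col1a1* rose by 0.44 ± 0.13 (adjusted p = 0.00334) and *Col1a2* differed by -0.13 (adjusted p = 0.196).

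**Figure D3:**
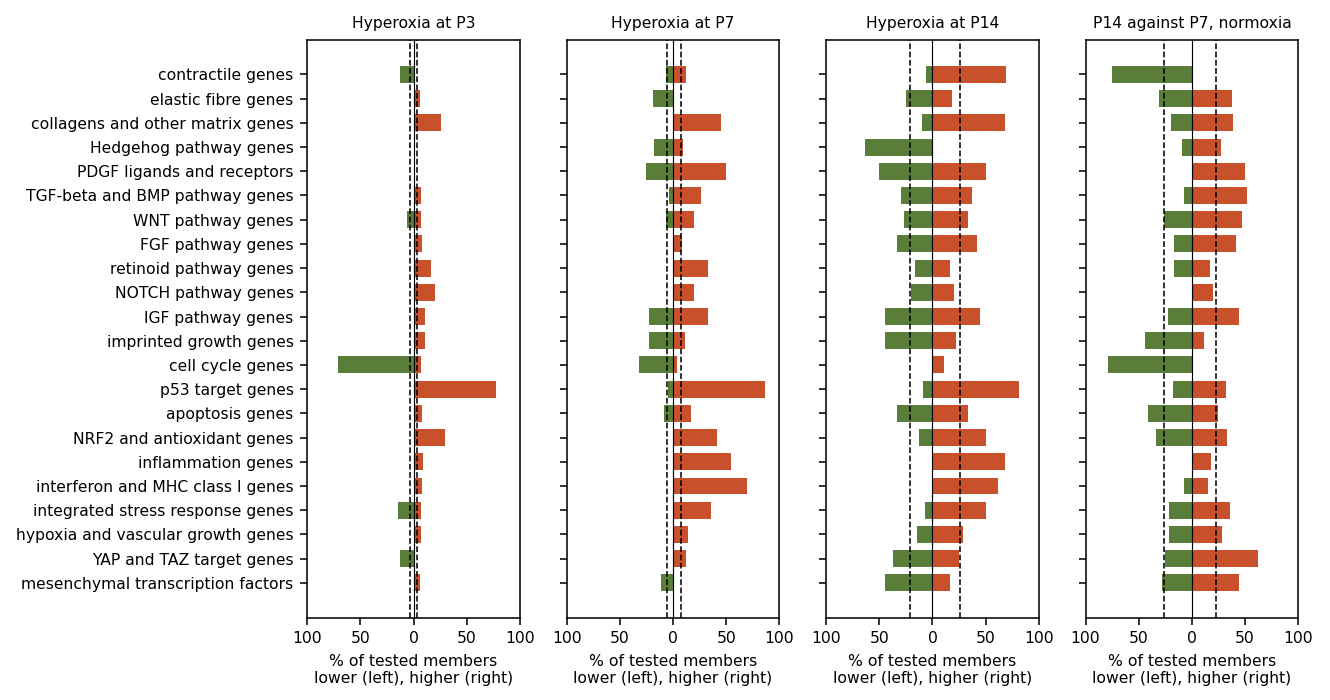
For 22 gene lists, the percent of tested members that were called higher (orange, to the right) or lower (green, to the left) in hyperoxia at P3, P7 and P14 and at P14 against P7 in normoxia. Dashed lines mark the percent of all tested genes called in that direction, such as 25.8% and 21% for hyperoxia at P14. The p53 targets stand to the right at all ages, the cell cycle genes to the left at P3 and from P7 to P14 in normoxia, and the contractile genes to the right at P14.

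Hedgehog pathway genes were lower at P14. Of 13 genes 11 were tested. None was called at P3, 1 rose and 2 fell at P7, and none rose and 7 fell at P14 (median log2 change -0.43). *Gas1*, a co-receptor for Hedgehog ligands, had between 137 and 434 CPM in normoxic (median 200) and between 6.06 and 20.5 CPM in hyperoxic mice (median 8.58) at P14, a fall of 4.42 ± 0.32 (adjusted p = 7.65e-15). It fell by 1.49 at P7, a call that was lost when only pools of a single age were used. The transducer *Smo* fell by 0.64 ± 0.13 (adjusted p = 6.48e-05), the receptor and target *Ptch1* by 0.36 (adjusted p = 0.043) and the effector and target *Gli1* by 0.58 (adjusted p = 0.0213, lost with equal UMIs per cell).

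Among PDGF genes, the second receptor *Pdgfrb* fell by 0.83 ± 0.13 at P14 (adjusted p = 5.24e-07), from between 362 and 447 CPM to between 139 and 278 CPM. The ligands moved the other way. *Pdgfa* rose by 0.69 ± 0.15 (adjusted p = 0.000164) and *Pdgfc* by 2.56 ± 0.41 (adjusted p = 1.6e-06) at P14, where *Pdgfc* had at most 5.50 CPM in normoxic and at least 10.7 CPM in hyperoxic mice. Of 6 genes 4 were tested, and *Pdgfb* and *Pdgfd* were too low in myofibroblasts.

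Of 27 genes of the TGF-beta and BMP pathways, 2 rose at P3, 7 rose and 1 fell at P7, and 10 rose and 8 fell at P14. *Fst*, follistatin, which binds activins, had between 1.82 and 40.4 CPM in normoxic (median 6.40) and between 227 and 395 CPM in hyperoxic mice (median 305) at P14, and 27.0, 50.9, 58.0, 85.7 and 101 CPM in hyperoxic mice at P7. It rose by 2.94 ± 0.40 at P7 (adjusted p = 7.13e-07) and by 5.14 ± 0.40 at P14 (adjusted p = 9.8e-14). The activin subunit *Inhba* rose by 2.36 at P14, the BMP antagonists *Grem1* and *Bmper* by 2.05 and 1.32, and the ligand *Bmp4* by 0.92. The receptors *Tgfbr3* and *Tgfbr1* fell by 1.58 ± 0.17 (adjusted p = 2.71e-10) and 0.86, and the ligand *Tgfb3* fell by 1.05, while *Tgfb1* rose by 0.84, 0.80 and 0.53 at the 3 ages.

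Of 15 tested WNT genes on a list of 22, 5 rose and 4 fell at P14, where 25.8% of all tested genes rose and 21% fell. *Fzd2*, a WNT receptor, fell by 1.54 ± 0.13 (adjusted p = 6.19e-13), *Wnt5a* by 0.63 and *Lgr6* by 1.0, and *Sfrp1*, a secreted inhibitor, rose by 1.70. Of 12 tested FGF genes on a list of 14, 5 rose and 4 fell at P14. *Etv4*, a transcription factor induced by FGF, rose by 3.54 ± 0.37 (adjusted p = 1.41e-10), from at most 12.9 CPM to at least 40.1 CPM, and *Spry4* and *Dusp6*, feedback inhibitors of the same pathway, by 1.16 and 0.78, while *Spry1* fell by 0.88 and the receptor *Fgfr1* by 0.87. Of 6 tested retinoid genes on a list of 13, 1 rose and 1 fell at P14. *Aldh1a2*, which makes retinoic acid, had 2 UMIs in all normoxic and 513 in all hyperoxic myofibroblasts at P14, a ratio of CPM of 238 with a counting interval of 65.6 to 1970 at 95%. It rose by 2.88 ± 0.29 at P7 (adjusted p = 4.05e-10), where normoxic mice had at most 5.38 CPM and hyperoxic mice at least 12 CPM. Of 5 tested NOTCH genes on a list of 9, *Notch1* rose by 0.91 and the target *Hes1* fell by 1.11 at P14.

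Insulin-like growth factor genes differed in both directions. Of 9 genes tested, none was called lower and *Igf2r* rose at P3, 3 rose and 2 fell at P7, and 4 rose and 4 fell at P14. *Igf1* had between 192 and 339 CPM in normoxic (median 255) and between 1055 and 1536 CPM in hyperoxic mice (median 1302) at P14, and 711, 756, 860.0, 1015 and 1108 CPM in hyperoxic mice at P7 against between 463 and 758 CPM. It rose by 0.73 ± 0.15 at P7 (adjusted p = 0.000555) and by 2.41 ± 0.15 at P14 (adjusted p = 3.55e-16). The binding proteins went apart. *Igfbp5* fell by 2.52 ± 0.32 at P7 (adjusted p = 1.82e-07) and by 3.40 ± 0.30 at P14 (adjusted p = 2.21e-12), from between 1172 and 2264 CPM to between 102 and 195 CPM, and *Igfbp3* fell by 3.48 ± 0.32 at P14 (adjusted p = 8.92e-12), from between 107 and 261 CPM to between 3.15 and 32.3 CPM. *Igfbp2* rose by 3.11 at P14, and the receptor *Igf1r* fell by 0.78.

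Of 11 imprinted growth genes 9 were tested, and 1 rose at P3, 1 rose and 2 fell at P7, and 2 rose and 4 fell at P14. *Peg3* fell by 2.58 ± 0.24 (adjusted p = 1.13e-11), the cell cycle inhibitor *Cdkn1c* by 2.33 ± 0.19 (adjusted p = 1.53e-13), from between 159 and 291 CPM to between 28.3 and 66.7 CPM, and the zinc finger gene *Plagl1* by 1.75 at P14, while *Ndn* and *Meg3* rose by 1.04 and 0.61.

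Inflammation genes rose from P7 on. Of 28 genes 22 were tested, and 2 rose at P3, 12 rose at P7 and 15 rose at P14, with no fall at any age (median log2 change 1.56 at P14). *Ccl2*, which draws monocytes, had between 3.14 and 44.4 CPM in normoxic (median 9.06) and between 42.4 and 554 CPM in hyperoxic mice (median 240) at P14. It rose by 4.40 ± 0.60 at P7 (adjusted p = 6.18e-07), lost in pools of a single age, and by 4.58 ± 0.61 at P14 (adjusted p = 3.81e-08), where the ranges just overlapped. *Cxcl1*, which draws neutrophils, rose by 2.53 and 1.64 at P7 and P14, the cytokine *Lif* by 5.05 at P14, the complement gene *C4b* by 2.41 and 3.52 and annexin *Anxa1* by 1.60 and 3.02, where the call of *Anxa1* at P7 was lost without 1 of the hyperoxic mice (replicate 4). Of 16 interferon and MHC class I genes 13 were tested, and 1 rose at P3, 9 rose at P7 and 8 rose at P14, without a fall (median 1.19 at P14). The peptide transporter *Tap1* rose by 2.06, 2.34 and 1.99 at the 3 ages, *Bst2* by 2.34 and *Isg15* by 3.18 at P14. Summed markers of immune cells were between 212.9 and 282.8 CPM in normoxic and between 134 and 164.9 CPM in hyperoxic myofibroblasts at P14. All 11 markers had UMIs in both groups. The part of other cells in the changes of these genes was not tested.

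NRF2 and antioxidant genes rose in part. Of 27 genes 24 were tested, and 7 rose at P3, 10 rose at P7, and 12 rose and 3 fell at P14. *Ephx1*, an epoxide hydrolase, rose by 2.17, 2.28 and 2.05 ± 0.15 at the 3 ages, without overlap (adjusted p = 2.54e-14 at P14), and glutathione peroxidase *Gpx1* by 0.53, 0.96 and 1.58 ± 0.09 (adjusted p = 4.89e-17 at P14). *Sod2*, the mitochondrial superoxide dismutase, rose by 0.45, 0.53 and 1.03, and *Gclc*, which limits glutathione synthesis, by 1.14, 0.95 and 1.27. *Txnrd1*, thioredoxin reductase, rose by 1.0 ± 0.18 at P14 (adjusted p = 1.66e-05), from a median of 45.3 to a median of 98.7 CPM with overlapping groups. *Hmox1* did not pass the test at P14 (log2 change 1.01, adjusted p = 0.0972).

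*Gpx3*, the secreted glutathione peroxidase, turned its direction. It had between 16.2 and 35.4 CPM in normoxic and between 37.7 and 86.4 CPM in hyperoxic mice at P3, between 8.36 and 30.5 CPM and 67.1, 74.6, 76.8, 85.2 and 88.6 CPM at P7, and between 194 and 652 CPM and between 66.0 and 98.5 CPM at P14. It rose by 1.46 at P3 and 2.1 at P7 and fell by 2.09 ± 0.21 at P14 (adjusted p = 6.43e-11). Hyperoxic mice thus overlapped between P7 and P14, while every normoxic mouse at P14 lay above every normoxic mouse at P7.

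The promoter of *Txnrd1* is shown for TGACNNNGC, the core of the antioxidant response element that NRF2 reads. The window is chr10:82858956-82859255 on the plus strand of GRCm38.p6 in RefSeq, 1 of 3 windows of the gene, and capitals mark the match on the opposite strand, 92 bases before the start.
Txnrd1: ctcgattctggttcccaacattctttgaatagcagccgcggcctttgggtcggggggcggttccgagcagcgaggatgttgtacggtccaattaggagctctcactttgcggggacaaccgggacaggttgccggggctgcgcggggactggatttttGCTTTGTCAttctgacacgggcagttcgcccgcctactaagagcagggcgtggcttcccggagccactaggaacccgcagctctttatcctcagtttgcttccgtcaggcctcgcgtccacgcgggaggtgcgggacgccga
On either strand, TGACNNNGC was in 8 of 27 windows of the 21 NRF2 and antioxidant genes with a window (29.6%) and in 12.4% of all windows.

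Of 12 tested apoptosis genes on a list of 13, 4 rose and 4 fell at P14, among them the activator *Bcl2l11* with a fall of 1.29 after a rise of 1.24 at P3. Of 14 tested genes of the integrated stress response on a list of 16, 7 rose and 1 fell at P14 (median log2 change 0.49), led by asparagine synthetase *Asns* (2.77). Of 14 tested hypoxia and vascular growth genes on a list of 15, 4 rose and 2 fell, among them the glycolytic *Ldha* and *Pgk1*, which rose by 1.52 and 1.08, while *Vegfa*, the vascular growth factor, differed by -0.03 (adjusted p = 0.941). Of 8 tested YAP and TAZ genes on a list of 9, 2 rose and 3 fell. Among all tested genes 25.8% rose and 21% fell at P14, and these lists were not tested against those shares. Of 18 tested mesenchymal transcription factors on a list of 19, 3 rose and 8 fell at P14, with falls of *Tbx5* (1.17), *Zeb1* (0.82), *Zeb2* (0.70), *Tbx4* (0.66) and *Meis1* (0.80) and rises of *Runx1* (1.28) and *Twist1* (1.01).

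Fewer genes were called from P3 to P7 in room air than from P7 to P14. From P3 to P7, 155 of 9737 genes rose (1.59%) and 94 fell (0.965%) in normoxia, a share of 62.2% higher among the calls, and DESeq2 called 146 higher and 143 lower, a share of 50.5%. These counts depended on the pools, with 71 genes called when the pool was a block and 795 in pools of a single age. From P7 to P14, 2252 genes rose (23.1%) and 2537 fell (26.1%) in normoxia. In hyperoxia 79 rose (0.811%) and 45 fell (0.462%) from P3 to P7, and 640 rose (6.57%) and 676 fell (6.94%) from P7 to P14. These calls numbered 124 and 1316, and with equal UMIs per cell 40 and 639. In normoxia the calls numbered 249 and 4789, and with equal UMIs per cell 168 and 4187. Depth differed between these ages as well. The mean over mice of the median UMI count was 9044 at P7 and 3522 at P14 in normoxia, and 8919 and 9100 in hyperoxia. The part of depth in these steps was not tested. In pools of a single age 541 genes were called from P7 to P14 in hyperoxia. The normoxic mice at P14 were used both here and in the effect of hyperoxia at P14, and P7 and P14 mice were never in the same pool, so that the pool and the step from P7 to P14 cannot be told apart.

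Most cell cycle genes fell from P7 to P14 in room air. In normoxia 22 of 28 fell and none rose (median log2 change -3.27), and in hyperoxia 8 fell and 20 were not called (median -1.81). From P3 to P7, 1 fell in normoxia and none was called in hyperoxia. *Pclaf* went from between 132 and 290 CPM at P7 to between 2.02 and 6.83 CPM at P14 in normoxia, and fell by 5.47, and *Rrm2* (5.28), *Ccnb2* (4.65), *Birc5* (4.41), *Cdk1* (4.40), *Cdca3* (4.24) and *Ube2c* (4.14) fell with it. *H19*, an imprinted RNA of growing tissue, had 244 UMIs at P7 and 3 at P14 in normoxia, a ratio of CPM of 42.4 with a counting interval of 14.3 to 207.

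Most contractile genes fell from P7 to P14 in room air. In normoxia 12 of 16 fell (median -1.25), and in hyperoxia 6 fell and 10 were not called (median -0.486), none rising in either. From P3 to P7, 1 rose and 1 fell in normoxia and none was called in hyperoxia. *Acta2* fell by 2.54 in normoxia and by 0.69 in hyperoxia, *Tagln* by 1.76 and 0.52, and *Actg2* by 2.8 and 0.67. In hyperoxia the calls of *Acta2*, *Tagln*, *Tpm1*, *Myl9* and *Myh11* were lost in pools of a single age. *Eln* rose by 2.71 in normoxia and by 1.31 in hyperoxia.

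Among genes above an average log2 CPM of 5, those with the largest rise in room air from P7 to P14 were *Fmo2*, *Pcolce2*, *Gpx3*, *Tnxb*, *Limch1*, *Igfbp3*, *Gas1* and *Sod3*. *Fmo2*, a flavin mono-oxygenase, had between 25.4 and 79.8 CPM in normoxic mice at P7 and between 1642 and 3288 CPM at P14, and between 76.3 and 234 CPM and between 108 and 282 CPM in hyperoxic mice. It rose by 5.41 in normoxia and differed by 0.37 in hyperoxia, and hyperoxic mice were above normoxic mice by 1.48 at P7, a call lost in pools of a single age, and below them by 3.56 at P14. *Pcolce2*, which enhances collagen processing, had between 10.3 and 38.0 CPM in normoxic mice at P7 and between 416 and 611 CPM at P14, and between 13.2 and 50.7 CPM in hyperoxic mice at P14. *Gas1* rose by 3.06 in normoxia and differed by 0.14 in hyperoxia, *Igfbp3* by 3.08 and -0.16, and *Hhip* by 1.35 and -0.66. *Sod3*, extracellular superoxide dismutase, rose in both, by 2.98 and 2.21, and reached between 119 and 309 CPM in normoxic and between 141 and 259 CPM in hyperoxic mice. *Dcn*, by contrast, rose by 2.72 in hyperoxia and differed by 0.42 in normoxia.

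**Figure D4:**
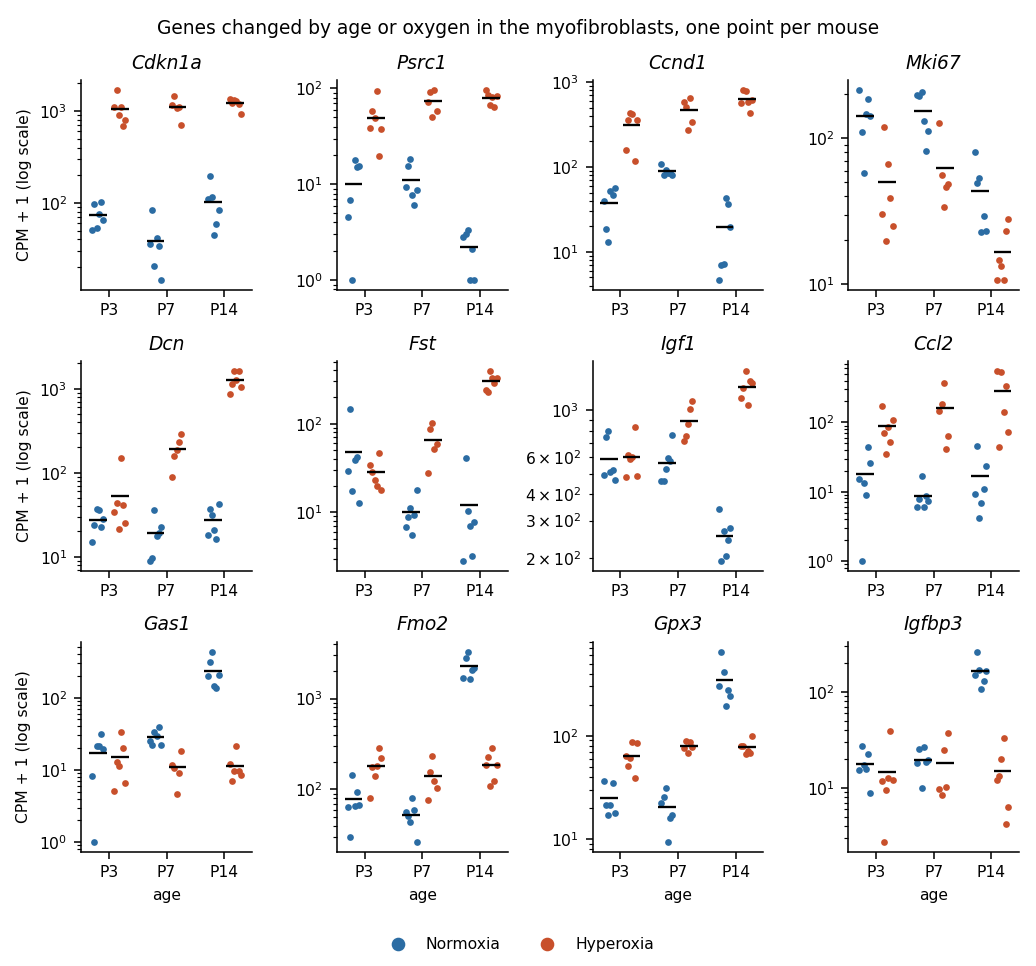
CPM + 1 on a log scale of 12 genes by age, with 1 point per mouse (normoxia blue, hyperoxia orange) and the mean as a line. *Cdkn1a*, *Psrc1* and *Ccnd1* are higher in hyperoxia at all 3 ages, *Dcn*, *Fst* and *Igf1* separate at P14, and *Gas1*, *Fmo2*, *Gpx3* and *Igfbp3* rise at P14 in normoxic mice, *Fmo2* to between 1642 and 3288 CPM.

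The effect of hyperoxia itself differed between ages for many genes. Against P3, the effect at P14 was higher for 1736 genes (17.8%) and lower for 1388 (14.3%), and against P7 it was higher for 1439 (14.8%) and lower for 1125 (11.6%). The 2564 calls against P7 went to 1681 with equal UMIs per cell and to 1429 in pools of a single age. The contractile genes had 11 of 16 members with a higher and none with a lower effect at P14 than at P3, and the cell cycle genes 13 of 28 and none. *Fst* (5.77), *Alkal1* (5.39) and *Dcn* (4.80) led the increase against P3 on the log2 scale, and *Fmo2* (-4.87), *Gas1* (-3.90), *Pcolce2* (-3.63) and *Gpx3* (-3.55) the decrease. Of these, *Alkal1*, a ligand of the kinase ALK, differed by -1.27 at P3 (adjusted p = 0.0876) and rose by 4.13 at P14.

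Compared with the other fibroblasts of the same mice, part of the response at P14 was larger in myofibroblasts, part was smaller and part did not differ past the threshold. Against *Col13a1*+ fibroblasts, 1388 of 10992 genes had a higher effect of hyperoxia in myofibroblasts (12.6%) and 1225 a lower effect (11.1%), and against *Col14a1*+ fibroblasts 802 of 9657 were higher (8.3%) and 758 lower (7.85%). These tests used the mouse as a block, since the same lung gave each type. *Dcn* rose in myofibroblasts and fell in the other types, by 0.92 in *Col13a1*+ and 0.59 in *Col14a1*+ fibroblasts, with differences of 6.37 (adjusted p = 1.64e-18) and 6.20 (adjusted p = 1.84e-22). *Cxcl14*, a chemokine, rose by 2.35 in myofibroblasts and fell by 2.39 and 0.98 in the others, with differences of 4.77 (adjusted p = 2.32e-18) and 3.35.

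*Fst* and *Aldh1a2* differed from *Col14a1*+ fibroblasts by 5.65 and 7.26, where the changes in those cells were -0.57 (adjusted p = 0.239) and 0.03 (adjusted p = 0.97). *Sulf2* differed from *Col14a1*+ fibroblasts by 4.83 and did not differ past the threshold from *Col13a1*+ fibroblasts, in which it rose by 3.61. *Hhip* fell in myofibroblasts and rose by 2.44 ± 0.16 in *Col13a1*+ fibroblasts, a difference of -4.18 (adjusted p = 1.94e-17), and Hedgehog pathway genes as a list had 9 of 12 tested members with a lower effect in myofibroblasts than in *Col13a1*+ fibroblasts and none with a higher one (median -0.833). Against *Col14a1*+ fibroblasts 2 of 13 Hedgehog members had a lower effect and none a higher one (median -0.233). *Gas1* fell in all 3 types, by 0.75 and 0.76 in the others, with differences of -3.67 from both. *Nnat*, neuronatin, rose by 3.00 and 2.34 in the others and was lower by 5.35 and 4.85 in the tests of the difference. Of 31 matrix genes, 20 had a higher and 3 a lower effect than in *Col14a1*+ fibroblasts (median 0.585), and 15 a higher and 9 a lower effect than in *Col13a1*+ fibroblasts (median 0.243). Of 26 inflammation genes, 5 had a higher and 11 a lower effect than in *Col13a1*+ fibroblasts (median -0.747), and of 27 tested against *Col14a1*+ fibroblasts 4 had a higher and 2 a lower effect (median 0.689).

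Of 16 contractile genes, 9 had a higher and 1 a lower effect in myofibroblasts than in *Col13a1*+ fibroblasts (median 0.539), and 6 a higher and 1 a lower effect than in *Col14a1*+ fibroblasts (median 0.502). The rise of *Acta2* did not differ past the threshold from that in either type. It rose by 1.75 ± 0.20 in *Col13a1*+ and 1.67 ± 0.22 in *Col14a1*+ fibroblasts, and the differences from these were 0.15 (adjusted p = 0.659) and 0.25 (adjusted p = 0.553). *Tagln* rose by 1.39 in *Col14a1*+ fibroblasts and fell by 0.51 in *Col13a1*+ fibroblasts, a difference of 2.03 from the latter (adjusted p = 9.71e-14) and of 0.11 from the former (adjusted p = 0.873). *Pdgfra* fell in all 3 types, by 2.25 in *Col13a1*+ and 0.96 in *Col14a1*+ fibroblasts, and its fall in myofibroblasts differed from the second (-1.17) and not past the threshold from the first (0.13, adjusted p = 0.758). *Eln* fell by 1.57 and 0.86 in the others, and differed by -0.26 (adjusted p = 0.39) and -1.03. *Cdkn1a* rose by 4.07 in *Col13a1*+ and 1.54 in *Col14a1*+ fibroblasts, with differences of -0.46 (adjusted p = 0.133) and 2.14 (adjusted p = 1.26e-05).

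**Figure D5:**
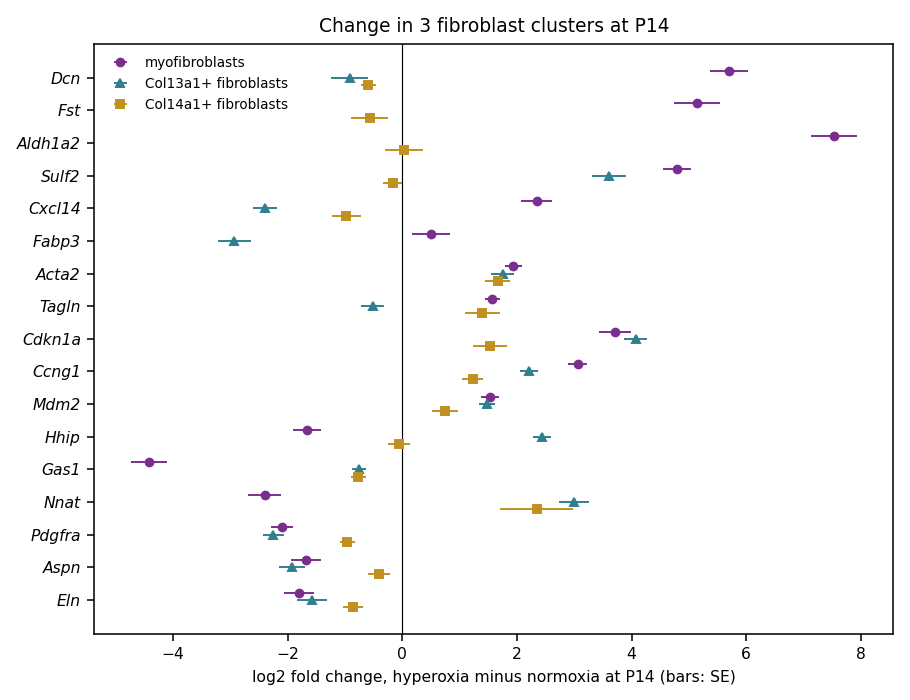
Log2 change between normoxia and hyperoxia at P14 of 17 genes in myofibroblasts, *Col13a1*+ and *Col14a1*+ fibroblasts, with SE bars and no point where a gene was not tested in a type. *Dcn* rises by 5.70 in myofibroblasts and falls in the others, *Hhip* falls in myofibroblasts and rises by 2.44 in *Col13a1*+ fibroblasts, and *Acta2* rises in all 3.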

How the data were processed

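Cells of 36 mouse lungs were read on 10x 3′ v3 with MULTI-seq sample barcodes. The authors aligned reads to mm10 with Cell Ranger 3.0.2, removed cells with no or several sample barcodes, filtered cells and clustered them, and deposited a table of raw UMI counts per gene and cell, counts of sample barcodes, and per cell the cluster, the mouse and the percent of mitochondrial UMIs. No doublet caller was run here. UMI counts were summed over the myofibroblasts of each mouse with at least 10 such cells (35 mice) and fitted in edgeR 4.0.16 (R 4.3.3; TMM, filterByExpr, quasi-likelihood test, a mean for each of 6 groups, Benjamini-Hochberg adjustment). In the fits against other fibroblasts the mouse was a block. Shares of cells, depth and cells with a UMI (each cell thinned to 1000 UMIs) were compared over mice with exact permutation tests of 924 splits (462 with 5 hyperoxic mice, 400 or 200 within pools), whose smallest p is 0.00216 (0.005 within pools), and differences of effects with 100000 permutations. Mice are separate animals. The study divided pups into litters and kept whole cages in room air or in hyperoxia. Litter and cage of a mouse are not given in the labels and were not in the fits. Counting intervals cover counting error only. Alternatives were DESeq2 1.42.0, limma 3.58.1, no filter, no criterion on detection, at least 25 cells, equal UMIs per cell, the pool as a block, leaving out each P7 hyperoxic mouse and, chosen after seeing the data, only pools of a single age.

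Named genes were the 8 with the largest change in each direction over all ages, in hyperoxia at P14 and from P7 to P14 in normoxia, the 4 largest in the differences of effects, all above an average log2 CPM of 5, and from 22 lists the 4 members with the smallest p at P14 and those whose role defines the list. Some genes that the rule named are not reported here. Other members were named after their values were seen. The cluster and the lists were chosen with earlier results of these data known. Positions are from the GENCODE annotation of GRCm38 and promoter windows from RefSeq. The fits were run on simulated counts with known changes at P14 and the same dispersion for all genes. The simulation held no differences between ages or pools and no single cells, so that it does not bear on these.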

Additional observations from a re-analysis of the deposited data

Results flagged for a closer look

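Outliers were looked for in 90 groups of 4 to 10 mice with Dixon's ratio, which finds about 1 in 20 by chance, and 4 were found. *Hhip* stood at 800 CPM in P3 Normoxia replicate 3 and *Aspn* at 3014.1 CPM in P3 Hyperoxia replicate 5. Myofibroblasts were 16.8% of stromal cells in P3 Hyperoxia replicate 5. The median share of mitochondrial UMIs was 4.91% in P7 Hyperoxia replicate 4.

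The effect of hyperoxia on the share of myofibroblasts differed between P7 and P3 by -5.89 points and between P14 and P3 by -5.26 points (permutation tests, adjusted p = 0.0256 each). The call between P7 and P3 was lost without the mouse of 125 cells (-4.93 points, permutation test, adjusted p = 0.0503) and among stromal cells (-13.4 points, permutation test, adjusted p = 0.106).

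The effect of hyperoxia on genes differed between P14 and P3 for 3124 genes and between P14 and P7 for 2564 genes in edgeR's test of the difference. Against P3 the differences on the log2 scale were 5.77 for *Fst*, 5.39 for *Alkal1*, 4.80 for *Dcn* and 4.27 for *Hist1h1b*, a histone gene (adjusted p = 0.0391), and -4.87 for *Fmo2*, -3.90 for *Gas1*, -3.63 for *Pcolce2* and -3.55 for *Gpx3*. Against P7 they were 3.62 for *Alkal1*, 3.00 for *Ccnb2* (adjusted p = 0.0183), 2.90 for *Psrc1* and 2.86 for *Etv4*, and -5.04 for *Fmo2*, -4.19 for *Gpx3*, -3.74 for the endothelin receptor *Ednrb* and -3.29 for the cadherin *Cdh4*. The call of *Hist1h1b* against P3 and that of *Gas1* against P7 were lost with equal UMIs per cell.

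The effect at P14 differed between myofibroblasts and *Col13a1*+ fibroblasts for 2613 genes, among them *Dcn* (6.37), *Fam198b* (5.04), *Cxcl14* (4.77) and *Fabp3* (3.49) with a higher and *Chodl* (-6.19), *Nnat* (-5.35), *Col14a1* (-4.32) and *Hhip* (-4.18) with a lower effect in myofibroblasts. The value of *Chodl* rests on 2 and 4 UMIs in myofibroblasts of the groups at P14. Against *Col14a1*+ fibroblasts 1560 genes differed, among them *Aldh1a2* (7.26), *Dcn* (6.20), *Fst* (5.65) and *Sulf2* (4.83) with a higher and *Nnat* (-4.85), *Rgs5* (-3.98, adjusted p = 0.00422), *Gas1* (-3.67) and *Pi15* (-3.44) with a lower effect.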

How the results depend on the processing

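Over 876 results of 149 named genes, 5848 of 6156 recomputed values kept their side of the threshold, 308 lost the call and none turned its direction. These results were taken because they were called in the fit reported above, and genes that a setting did not test were left out. The setting of at least 25 cells left out no further mouse. Its 876 values repeated that fit, so that their agreement was fixed in advance. Some differences that passed no test did change sign, among them UMIs per cell at P7 (-125.4 by the median, 413.5 by the mean), and for the share the step from P7 to P14 in normoxia (-0.338 points, 4.7 of stromal cells) and in hyperoxia (0.294 points, -1.09 of stromal cells, -0.663 without the mouse with the fewest cells) and the effect at P14 minus that at P7 (0.632 points, -5.79 of stromal cells, -0.325 without that mouse). The shares of cells with a UMI of *Acta2* at P3 and P14 and of *Pdgfra*, *Mustn1*, *Hhip* and *Aspn* at P14 kept their direction and call without thinning and with 2000 UMIs per cell, while uncalled shares changed sign for *Pdgfra* at P3 (-3.53 points with 1000 UMIs, 0.292 without thinning, 1.93 with 2000), *Hhip* at P3 (0.372, -6.19 and -3.5), *Tgfbi* at P3 (0.0735, -1.29 and 0.496) and *Tagln* at P7 (-0.515, -1.43 and 0.171). With equal UMIs per cell, 651 genes were called for hyperoxia at P7 (1232 with all UMIs), 1681 for the difference between P14 and P7 (2564), 40 from P3 to P7 in hyperoxia (124) and 639 from P7 to P14 in hyperoxia (1316); this setting discards UMIs by construction and tested 7568 genes in place of 9737. In pools of a single age, which hold fewer mice, 336 were called at P3 (630), 505 at P7, 1429 for the difference between P14 and P7, 795 from P3 to P7 in normoxia (249) and 541 from P7 to P14 in hyperoxia. Leaving out 1 P7 hyperoxic mouse at a time gave 847 to 1157 genes at P7, 3334 to 3372 over all ages, 2345 to 2480 for the difference between P14 and P7, 933 to 1296 from P7 to P14 in hyperoxia and 73 to 141 from P3 to P7 in hyperoxia, with 79 without replicate 4 and 73 without replicate 6.

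With the pool as a replicate block, 71 genes were called from P3 to P7 in normoxia, and 773, 1697 and 4844 for hyperoxia at P3, P7 and P14. The step from P7 to P14 could not be fitted with the block. Permuted within pools, the share at P14 differed by -5.01 points (adjusted p = 0.06), and among non-immune cells by -7.13 points (adjusted p = 0.0589, exact permutation test). Without the mouse with the fewest cells the share differed by 1.96 points between P7 and P3 in hyperoxia (adjusted p = 0.0401, exact permutation test), and the effect between P7 and P3 by -4.93 points (permutation test, adjusted p = 0.0503). With all mice, the effect on the percent of stromal cells differed between P7 and P3 by -13.4 points (permutation test, adjusted p = 0.106). The cause of these moves was not tested. A mouse had as few as 27 myofibroblasts at P3, and what this depth limits was not tested.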

Other observations

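Genes outside the lists moved as well. *S100a6*, a calcium-binding protein, rose by 2.83 at P7 and 4.07 at P14, and *Ednrb*, the endothelin B receptor, rose by 0.97 at P7, a call lost without replicate 3 of the hyperoxic mice, and fell by 2.77 at P14, from between 35.8 and 78.5 CPM to between 4.55 and 12.9 CPM. *Adam33*, a metalloproteinase of mesenchyme, fell by 2.19 at P7 and 2.81 at P14.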
